A study of Arabidopsis thaliana with 6 samples.

Results

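The 9 genes described here are Arabidopsis markers of sugar starvation and darkness: ASN1 (also called DIN6), SEN1 (DIN1), DIN10, BGLU30 (DIN2), BCAT2, MCCA, PRODH1, DRM1 and AT2G33830, a close relative of DRM1. They were chosen by locus identifier, and all 9 were found among the 32678 genes of the count table. Reads per gene had been counted in 6 libraries of root meristems from 5-day-old seedlings: 3 labelled wild type (Col0) and 3 labelled papl1-1papl2, also written cog1-6cdf4, a double mutant of the related transcription factor genes COG1 and CDF4. Both genotypes were grown on agar plates of 0.5 x MS salts at 23 ºC in long days, and the medium held 1% sucrose, so that sugar was supplied from outside in every library. Library totals ran from 17849704 to 20914576 counts. The labels name no sequencing batch, and they do not say whether the 3 replicates of a genotype came from separate plates or days, so p-values measure the spread between these libraries only.

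When sugar runs short, in darkness or after starvation, plant cells turn on a common set of genes through the SnRK1 protein kinase and basic leucine zipper (bZIP) transcription factors of the C and S1 groups. The products of these genes move nitrogen into asparagine, break down branched-chain amino acids and proline in mitochondria to feed respiration, and hydrolyse glycosides and galactosides. ASN1 and the other dark-inducible (DIN) genes serve as readouts of this programme, because sugar feeding lowers their transcripts within hours. DRM1 and AT2G33830 encode small dormancy-associated proteins whose transcripts fall when buds start to grow.

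The 300 bases upstream of the annotated gene start are shown for 4 of the genes, the 2 that passed the test of genotype (ASN1 and DRM1) and the 2 with the most reads (PRODH1 and DIN10), because bZIP factors are known to act on promoters of this programme. The sequences are from the TAIR10.1 assembly with its RefSeq annotation and read 5′ to 3′ towards the gene. They lie at chr3:17441432-17441731, minus strand, for ASN1, chr1:9935441-9935740, minus strand, for DRM1, chr3:12451557-12451856, minus strand, for PRODH1 and chr5:6833264-6833563, plus strand, for DIN10. Capitals mark matches on either strand to CACGTG (the G-box), ACTCAT (an element known from the PRODH1 promoter) and TATCCA (a sugar-response element of cereal amylase promoters).
ASN1: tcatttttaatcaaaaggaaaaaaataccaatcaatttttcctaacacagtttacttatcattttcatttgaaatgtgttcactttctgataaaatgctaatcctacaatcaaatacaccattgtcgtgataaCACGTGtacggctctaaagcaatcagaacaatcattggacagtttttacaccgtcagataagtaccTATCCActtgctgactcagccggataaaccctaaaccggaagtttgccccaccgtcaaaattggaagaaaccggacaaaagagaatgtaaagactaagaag
DRM1: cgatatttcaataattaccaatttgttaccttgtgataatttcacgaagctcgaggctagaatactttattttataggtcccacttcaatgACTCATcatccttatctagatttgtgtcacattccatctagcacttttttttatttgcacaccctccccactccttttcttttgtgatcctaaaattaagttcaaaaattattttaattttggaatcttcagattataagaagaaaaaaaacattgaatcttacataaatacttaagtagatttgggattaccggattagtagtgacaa
PRODH1: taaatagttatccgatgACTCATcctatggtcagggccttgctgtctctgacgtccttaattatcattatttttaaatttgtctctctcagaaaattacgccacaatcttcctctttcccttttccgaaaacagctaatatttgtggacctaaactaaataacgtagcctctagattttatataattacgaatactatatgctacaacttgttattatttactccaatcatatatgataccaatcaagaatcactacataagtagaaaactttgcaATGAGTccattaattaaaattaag
DIN10: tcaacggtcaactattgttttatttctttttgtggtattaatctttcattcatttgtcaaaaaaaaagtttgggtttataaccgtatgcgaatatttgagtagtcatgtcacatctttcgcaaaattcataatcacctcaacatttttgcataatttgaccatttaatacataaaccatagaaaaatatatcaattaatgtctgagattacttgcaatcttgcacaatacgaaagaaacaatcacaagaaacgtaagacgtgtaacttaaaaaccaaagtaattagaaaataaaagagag

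ASN1 held a G-box that began 167 bases and a TATCCA that began 101 bases upstream of its start. PRODH1 held ACTCAT matches that began 283 and 24 bases upstream, and DRM1 held 1 that began 209 bases upstream. DIN10 held none of these 3 motifs but had 2 matches to ACGT, the bZIP core, which also lies within the G-box. AT2G33830 held 2 TATCCA matches. Over the 9 upstream windows, CACGTG was found in 1, ACTCAT in 2, TATCCA in 2 and ACGT in 4. Among the windows of the same length of 27443 nuclear protein-coding genes, 7.09% held CACGTG, 14.8% held ACTCAT, 16.2% held TATCCA and 49.0% held ACGT. AAAG, the core bound by Dof factors, the family of COG1 and CDF4, was in 8 of the 9 windows (0 to 7 matches each) and in 99.0% of the 27443, with a median of 5 matches. An annotated gene overlaps the window of ASN1 (AT3G47341), of DRM1 (AT1G09025) and of SEN1 (AT4G35760). These matches describe the letters of the windows and are no evidence of binding.

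The libraries were first checked against their labels. The COG1 locus (AT1G29160) was at 11.5 ± 0.977 CPM under the wild-type label and 19.5 ± 2.72 CPM under the mutant label, and the CDF4 locus (AT2G34140) at 4.02 ± 0.484 and 5.99 ± 0.423 CPM (SD, n = 3 for each label). At both loci every mutant-labelled value lay above every wild-type value, and COG1 was called higher under the mutant label, by 0.76 on the log2 scale (edgeR adjusted p 0.0137), while CDF4 was not called (0.0952). A count cannot show whether a transcript was intact, so every direction below rests on the labels. CPM stands for a gene's reads relative to all reads of its library, scaled by the TMM method. The 5 markers of the root meristem and its stem cell niche were all detected and summed to 184 to 188 CPM in the wild-type and 177 to 187 CPM in the mutant-labelled libraries. The 4 markers of green shoot tissue summed to 1.90 to 3.67 and 2.40 to 2.87 CPM, and RBCS1A was at 0 counts in the wild-type libraries. Replicate 3 labelled papl1 papl2 stood apart in the 6 root hair markers, which summed to 0.838 CPM there. They summed to 16.1 and 11.8 CPM in replicates 1 and 2 of that label and 5.05 to 6.00 CPM in the wild type. That library also differed most from its replicates over all genes with 10 counts or more. The chi-square per degree of freedom, a measure of spread beyond counting error, was 14.7 and 8.80 against replicates 1 and 2. For every other pair within a label it was 3.93 to 5.03.

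Of the 9 starvation markers, 2 were called higher in the libraries labelled papl1 papl2: ASN1, which makes asparagine from glutamine and aspartate, by about 8.67-fold, and DRM1 by 3.26-fold. Genes were called where edgeR's quasi-likelihood test gave a Benjamini-Hochberg adjusted p under 0.05 over 17720 tested genes, of which 2.76% were called, 2.23% as higher and 0.525% as lower. Of the 9 genes, 6 passed the filter on low counts and were tested (ASN1, DIN10, MCCA, PRODH1, DRM1 and AT2G33830), and 3 did not (SEN1, BGLU30 and BCAT2). The 6 tested genes had log2 fold changes of 0.38 to 3.12, and the 4 that were not called had adjusted p from 0.0669 to 0.177. Their median log2 fold change was 1.49, against 0.00 over all tested genes. A gene with few reads in 1 genotype passes the filter more easily when the other is high, so this median and the 2 of 6 describe the tested genes and not the 9. In bulk RNA, fewer cells of a type and less RNA per cell cannot be told apart.

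**Figure D1:**
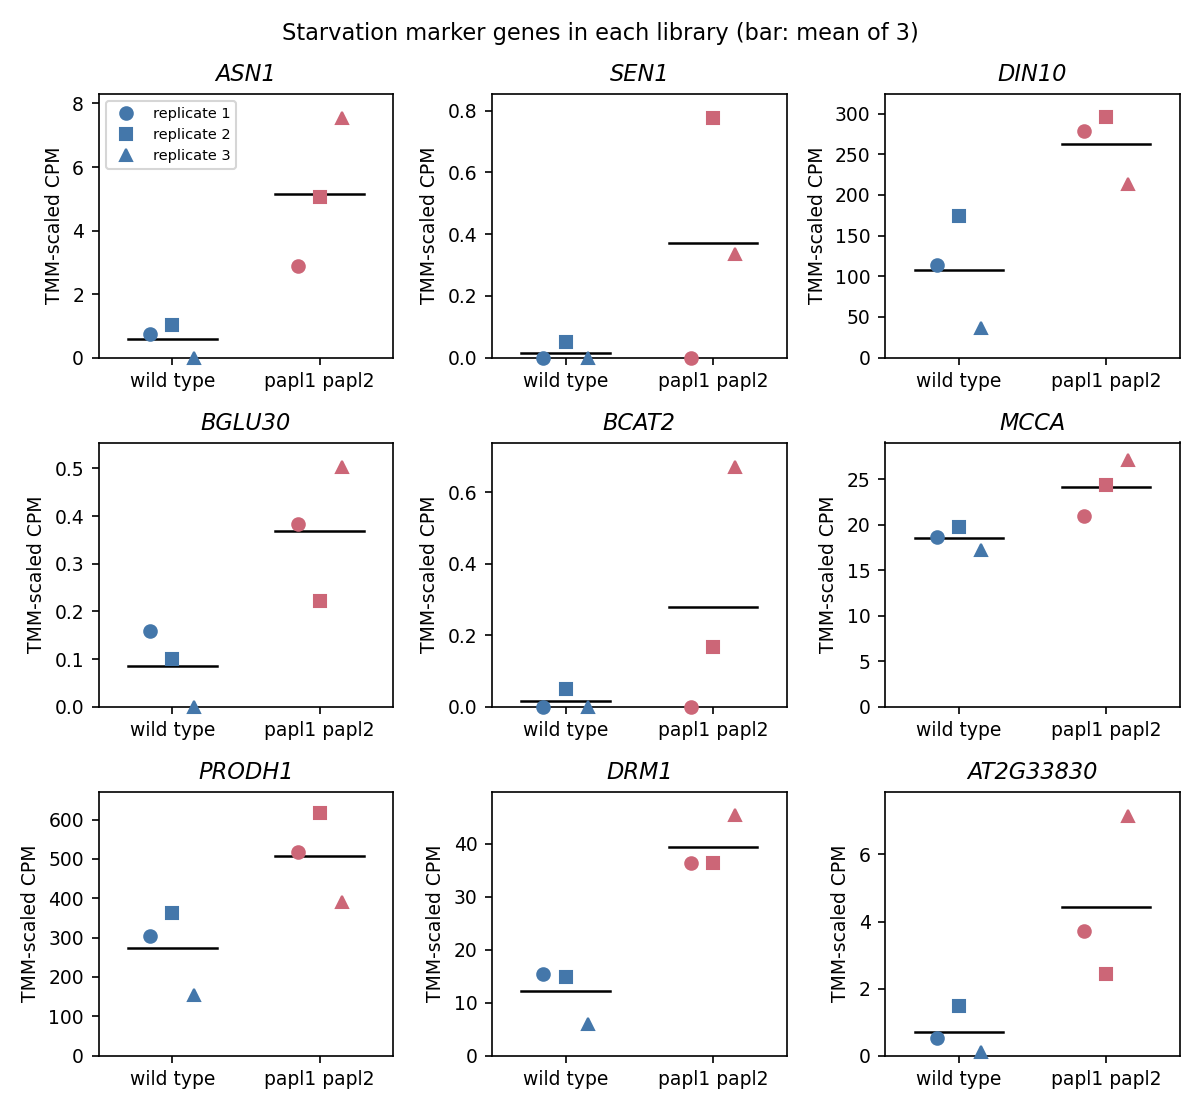
TMM-scaled CPM (y axes, linear from 0, each with its own range) of the 9 genes in the 3 wild-type (blue) and 3 papl1 papl2 (red) libraries, with a marker shape for each replicate and a bar for the mean of 3. DRM1 lies at 6.00 to 15.5 CPM in wild type and 36.3 to 45.5 CPM in papl1 papl2, and replicate 3 is the lowest wild-type library for ASN1, DIN10, PRODH1, DRM1 and AT2G33830.

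Nitrogen storage was represented by ASN1 (AT3G47340, chr3:17437840-17441431, minus strand, 10 exons in its longest transcript). Its counts in replicates 1 to 3 were 14, 21 and 0 under the wild-type label and 60, 91 and 135 under papl1 papl2, or 0.738, 1.04 and 0 CPM against 2.87, 5.05 and 7.54 CPM. Every mutant-labelled library lay above every wild-type library, as for 11.7% of all tested genes (9.8% had every mutant-labelled value below), and the lowest of them was 2.76 times the highest wild-type value. The log2 fold change was 3.12 (SE 0.65, 95% interval 1.66 to 4.57), at an edgeR adjusted p of 0.0390. The call was lost, with adjusted p of 0.0591 to 0.182, when any of the wild-type libraries or replicate 2 labelled papl1 papl2 was left out, and it was lost in the DESeq2 Wald test (adjusted p 0.229). Without wild-type replicate 2 the log2 fold change was 3.83. ASN1 overlaps the opposite-strand gene AT3G47341 by 11 bases. The other asparagine synthetase genes, ASN2 and ASN3, had far more reads and log2 fold changes of -0.06 and 0.08. They were at 152 ± 1.87 and 103 ± 4.87 CPM in wild type and 145 ± 1.36 and 109 ± 2.31 CPM in papl1 papl2 (SD, n = 3 for each label), and neither passed the test (adjusted p 0.573 and 0.553, edgeR).

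The dormancy-associated gene DRM1 (AT1G28330, chr1:9933786-9935440, minus strand, 2 exons) gave the smallest p-value of the 9. It was at 15.5, 14.9 and 6.00 CPM in wild-type replicates 1 to 3 and at 36.4, 36.3 and 45.5 CPM under papl1 papl2, from 126 to 301 and 655 to 815 counts. The groups did not overlap, and the lowest mutant-labelled value was 2.34 times the highest wild-type value. The log2 fold change was 1.70 (SE 0.27, 95% interval 1.08 to 2.32) at an edgeR adjusted p of 0.0146. At the same threshold the call was lost without wild-type replicate 1 (adjusted p 0.0566) and without replicate 2 labelled papl1 papl2 (0.0527), and in none of the other 11 alternatives. Its relative AT2G33830 (chr2:14308754-14310608, minus strand) had far fewer reads, at 0.527, 1.49 and 0.0953 CPM in wild type and 3.73, 2.44 and 7.15 CPM under papl1 papl2, from 2 to 30 and 44 to 128 counts. Its groups did not overlap either. Its log2 fold change of 2.65 (SE 0.64, 95% interval 1.21 to 4.09) did not pass, at an edgeR adjusted p of 0.0669. It passed at 3.84 without wild-type replicate 2 (edgeR adjusted p 0.0435), at 2.14 without replicate 3 labelled papl1 papl2 (0.0395), at 1.60 without both replicates 3, added after the data were seen (0.0351), and at 2.65 with no filter on low counts (0.0257). Another gene of the family, AT1G56220, rose from 37.4 ± 7.38 CPM (SD, n = 3) in wild type to 59.1 ± 7.14 CPM (SD, n = 3), by 0.66 on the log2 scale (SE 0.14, edgeR adjusted p 0.0406). The other family genes listed, AT1G54070 and AT5G44300, had 3 and 0 counts over all libraries.

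DIN10 (AT5G20250, chr5:6833564-6836862, plus strand), of the raffinose synthase family, had the second most reads and varied widely within wild type. Its values were 113, 174 and 36.1 CPM in wild-type replicates 1 to 3, a range of 4.83-fold, and 279, 296 and 214 CPM under papl1 papl2. The groups did not overlap, but the lowest mutant-labelled library was only 1.23 times the highest wild-type one. The log2 fold change was 1.29 (SE 0.42, 95% interval 0.33 to 2.24), and it did not pass, at an edgeR adjusted p of 0.177. DIN10 overlaps the opposite-strand gene AT5G20260 by 82 bases. Among its relatives, SIP2 (AT3G57520) had more reads than DIN10, at 266 ± 58.1 CPM in wild type and 341 ± 31.2 CPM under papl1 papl2 (SD, n = 3 for each label), and differed by 0.36 on the log2 scale (edgeR adjusted p 0.252).

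PRODH1 (AT3G30775, chr3:12448636-12451556, minus strand; named ERD5 in the annotation), the mitochondrial enzyme that starts proline oxidation, had the most reads of the 9. It was at 304, 362 and 155 CPM in wild-type replicates 1 to 3 and at 517, 616 and 391 CPM under papl1 papl2. Wild-type replicate 3 and mutant-labelled replicate 3 were each the lowest of their label, and the groups were separated by a factor of only 1.08. The log2 fold change was 0.89 (SE 0.27, 95% interval 0.28 to 1.51), and the edgeR adjusted p was 0.145. The rest of the proline pathway had smaller differences: P5CDH, which completes proline oxidation, was at 127 ± 5.02 and 124 ± 4.48 CPM, and the synthesis gene P5CS2 at 74.7 ± 2.87 and 86.5 ± 3.09 CPM in wild type and papl1 papl2 (SD, n = 3 for each label). Neither passed in edgeR (adjusted p 0.822 and 0.0996).

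MCCA (AT1G03090, chr1:739544-744184, plus strand, 16 exons) encodes a subunit of methylcrotonyl-CoA carboxylase, an enzyme of leucine breakdown. It was the most even of the tested genes, at 18.6, 19.8 and 17.2 CPM in wild type and 20.96, 24.3 and 27.2 CPM under papl1 papl2. The groups lay next to each other without overlap. Its log2 fold change of 0.38 (SE 0.11, 95% interval 0.14 to 0.62) went with an edgeR adjusted p of 0.109. Its partner subunit MCCB was at 40.9 ± 4.70 and 43.0 ± 1.62 CPM in wild type and papl1 papl2 (SD, n = 3 for each label), with a log2 fold change of 0.07. MCCA overlaps 2 genes on the opposite strand over 525 bases, and whether the authors counted by strand is not given in the sources used here.

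The remaining 3 genes were close to the detection floor, which was taken as 3 counts, or 0.143 to 0.168 CPM. SEN1 (AT4G35770, chr4:16944878-16946266), a rhodanese-domain gene of senescing leaves, had 0, 1 and 0 counts in wild type and 0, 14 and 6 under papl1 papl2. BCAT2 (AT1G10070, chr1:3288087-3290471), a branched-chain amino acid transaminase, had 0, 1 and 0 and then 0, 3 and 12 counts. In both genes replicate 1 labelled papl1 papl2 was at 0, so the groups overlapped. BCAT2 overlaps the opposite-strand gene AT1G10090 by 161 bases. BGLU30 (AT3G60140, chr3:22216540-22220824), a beta-glucosidase, had 3, 2 and 0 counts in wild type and 8, 4 and 9 under papl1 papl2, with no overlap. The ratios of summed counts, papl1 papl2 over wild type and corrected for library size, were 21.2 for SEN1 (exact 95% interval 3.38 to 877), 15.9 for BCAT2 (2.44 to 668) and 4.44 for BGLU30 (1.63 to 15.1), where the intervals cover counting error only. With no filter on low counts edgeR gave the 3 genes adjusted p of 0.219, 0.306 and 0.287.

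Per kilobase of the longest annotated transcript, the 6 tested genes kept the same order of mean level under both labels. In CPM per kilobase, PRODH1 was at 126 ± 49.1 in wild type and 234 ± 52.0 under papl1 papl2, DIN10 at 35.9 ± 23.0 and 87.3 ± 14.5, and DRM1 at 8.13 ± 3.56 and 26.4 ± 3.54 (SD, n = 3 for each label). MCCA followed at 6.77 ± 0.465 and 8.81 ± 1.13, AT2G33830 at 0.754 ± 0.764 and 4.76 ± 2.61 and ASN1 at 0.243 ± 0.220 and 2.11 ± 0.958 (SD, n = 3 for each label). Neighbours in this order overlapped over the libraries for DRM1 and MCCA in wild type, for MCCA and AT2G33830 under papl1 papl2, and for AT2G33830 and ASN1 under both labels. The 9 genes together held 0.0215% to 0.0571% of all counts in wild type and 0.0695% to 0.0982% under papl1 papl2.

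The spread within each genotype had a pattern of its own. Wild-type replicate 3 was the lowest of its label by more than 1.5-fold for 5 of the 6 tested genes, the exception being MCCA, whereas 1.64% of all tested genes showed this. ASN1 and AT2G33830 had 0 and 2 counts there, under the floor of 3, and passed the filter with the help of their mutant-labelled counts. The pattern was also read from these same genes, so the comparison with all tested genes is a description. Under papl1 papl2 the genes split: ASN1, DRM1, AT2G33830 and MCCA were highest in replicate 3, and DIN10 and PRODH1 were lowest there. That library was the lowest of its label by more than 1.5-fold for 0 of the 6 genes and for 5.12% of all tested genes. The root hair markers were also lowest in that library. Their sum in wild-type replicate 3 was 5.05 CPM, beside 5.64 and 6.00 CPM in the other wild-type libraries, but COBL9 alone gave 4.43 CPM of it. EXPA7, EXPA18, RSL4 and LRX1, all at few counts, were each lowest of the wild type in replicate 3, while COBL9 and PRP3 were not. The part of the root hair markers in the result was not tested. Without wild-type replicate 3 the log2 fold change of ASN1 fell from 3.12 to 2.51. Those of DRM1 and PRODH1 fell from 1.70 to 1.37 and from 0.89 to 0.61. In that fit 1 of the 6 genes, DRM1, was called, beside 0.865% of all tested genes. Without replicate 3 labelled papl1 papl2, 4 were called (ASN1, PRODH1, DRM1 and AT2G33830), where 6.48% of all tested genes were. With both left out, an alternative added after the data were seen, 5 were called and MCCA was not, beside 5.61% of all tested genes.

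**Figure D2:**
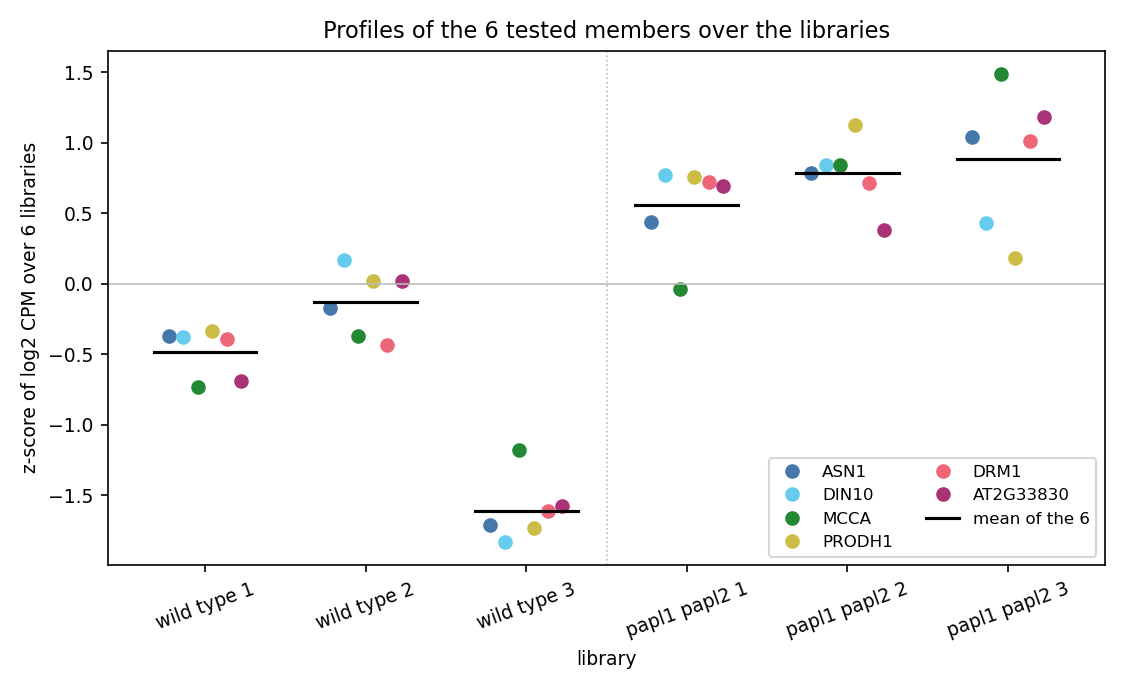
Log2 CPM of the 6 tested genes in each library (x axis), as z-scores over the 6 libraries (y axis, no unit), with a colour for each gene and a black bar for the mean of the 6 genes. The mean is -1.61 in wild-type replicate 3, against -0.48 and -0.13 in wild-type replicates 1 and 2, and DIN10 and PRODH1 lie below the other genes in replicate 3 labelled papl1 papl2.

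Other genes of the starvation programme were described next, in lists of 12 further dark-induced or carbon-starvation markers and of the enzymes and regulators around the 9 genes. Of the 12 markers, 11 were tested and 0 were called higher or lower in edgeR. Of the 11, 7 had every mutant-labelled value above the wild-type values, against 11.7% of all tested genes. For 1, DIN9, every one lay below, against 9.8%. The median log2 fold change of the 11 was 0.65. EXL1, at no more than 0.347 CPM in wild type, passed the filter through its mutant-labelled counts. ATG8E and MIOX4, at 10 and 1 counts in wild-type replicate 3, passed with the help of theirs. The counts for this list and its median therefore describe the tested genes only. Unadjusted, at p under 0.05 in the same test, 7 of the 11 passed, 6 higher and 1 lower, against 2823 of the 17720 tested genes, and the DESeq2 Wald test called 4 (DIN3, EXL1, BT2 and ATG8E), where it called 3.66% of the genes it tested. The smallest p-value was that of SEN5 (AT3G15450), an aluminium-induced-type protein known as a SnRK1-induced marker, at 87.0, 106 and 20.8 CPM in wild type and 242, 303 and 307 CPM under papl1 papl2. It differed by 2.00 on the log2 scale (SE 0.44), at an edgeR adjusted p of 0.05001, just outside the threshold. BT2, EXL1, MIOX2 and ATG8E, named here after their values were seen, had log2 fold changes of 1.63, 2.41, 1.44 and 1.53 with adjusted p of 0.0543, 0.0622, 0.154 and 0.107 in edgeR. DIN9, a phosphomannose isomerase gene, went the other way, at 4.72 ± 0.752 CPM in wild type and 3.01 ± 0.874 CPM under papl1 papl2 (SD, n = 3 for each label), with an adjusted p of 0.230 in edgeR.

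**Figure D3:**
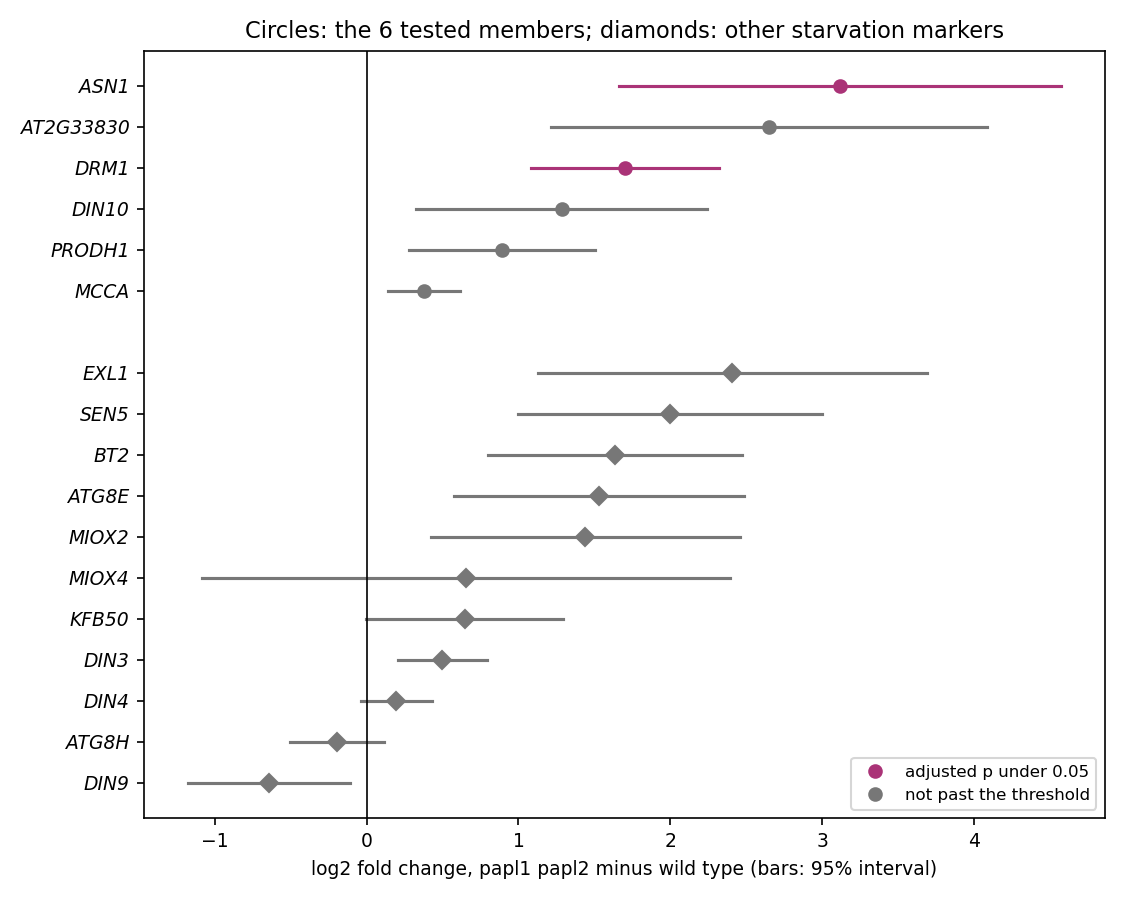
Log2 fold change between papl1 papl2 and wild type (x axis; bars are 95% intervals) of the 6 tested genes (circles) and the 11 tested genes of the list of further starvation markers (diamonds), with those past an adjusted p under 0.05 in purple. ASN1 (3.12) and DRM1 (1.70) are past it, and DIN9 (-0.64) and ATG8H (-0.19) are the only genes plotted with a value below 0.

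Branched-chain amino acid breakdown, the pathway of BCAT2 and MCCA, differed little: of 16 listed genes 14 were tested, 0 were called in edgeR and the median log2 fold change was 0.10. At an unadjusted p under 0.05, 2 of the 14 passed, both higher, against 2823 of the 17720 tested genes. Beside 3.66% of all genes it tested, the DESeq2 Wald test called 1 of the list, DIN3. The smallest p-value was that of DIN3 (AT3G06850), a subunit of the branched-chain keto acid dehydrogenase, at 18.3 ± 1.33 and 25.9 ± 4.71 CPM in wild type and papl1 papl2 (SD, n = 3 for each label), a log2 difference of 0.50 (edgeR adjusted p 0.0886). Of 12 enzymes of asparagine, glutamate and proline metabolism 11 were tested, 0 were called and the median was -0.03. At an unadjusted p under 0.05, 3 of the 11 passed, 2 higher and 1 lower, beside the share over all genes given above. DESeq2 called 2 of the 3, ASPGB1 and GDH2. The smallest p-value there was that of the asparaginase gene ASPGB1, which cleaves asparagine, at 54.5 ± 5.15 and 40.2 ± 6.82 CPM (SD, n = 3 for each label), a log2 difference of -0.44 (edgeR adjusted p 0.0962). Of 19 paralogs of the 9 genes, 10 were tested and only AT1G56220, described above, was called. Of 6 genes known to be induced by sugar, 2 were tested and 0 called at an unadjusted p under 0.05 or by DESeq2. Of these, chalcone synthase (CHS) was at 357, 214 and 386 CPM in wild type and 251, 241 and 72.5 CPM under papl1 papl2, with overlap and an adjusted p of 0.398 in edgeR.

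Among the bZIP regulators of the programme, the 4 C group genes were tested and 0 were called in edgeR. At an unadjusted p under 0.05, 1 of the 4 passed, against 2823 of the 17720 tested genes, and DESeq2 called 0. That gene was bZIP63 (AT5G28770), a SnRK1 target, at 16.2, 22.0 and 9.24 CPM in wild type and 29.2, 27.3 and 33.2 CPM under papl1 papl2. The log2 difference was 0.92 (SE 0.24, edgeR adjusted p 0.0915), and wild-type replicate 3 was again the lowest library. The 5 S1 group genes (bZIP1, bZIP2, bZIP11, bZIP44 and bZIP53) are listed at 0 in all 6 libraries. Their transcripts carry a conserved upstream reading frame through which sucrose represses translation. SAMDC1 (AT3G02470), a polyamine synthesis gene whose transcript carries an upstream reading frame too and which was looked up after these zeros were seen, has 1 count over all libraries. SAMDC2 and SAC51, looked up for the same reason, are listed at 0. In all, 9906 of the 32678 genes are at 0 in every library. Of the 5 S1 genes, 0 overlap another gene on the same strand in the annotation used here. The annotation that the authors counted with is not given, so this cannot show whether they overlap one there. Why these genes are at 0 was not tested. The zeros are not read as absent transcripts, and the S1 factors have no usable value here.

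The genes with profiles most like the mean z-score profile of the 6 tested genes were named by a fixed rule, the smallest Euclidean distance over the 6 libraries among 16789 genes with a mean of at least 1 CPM. They were SEN5 at a distance of 0.205, NTMC2T4 (AT3G61050) at 0.210, WAKL4 (AT1G16150) at 0.237, AT3G15630 at 0.266 and AT3G47160 at 0.267. For comparison, ASN1 itself lay at 0.252 and MCCA at 1.01. SEN5 was thus nearest without having been part of the 9. The z-score sets size aside: NTMC2T4 had a log2 fold change of only 0.15, while that of AT3G15630 was 2.17 (SE 0.33), at 8.54, 10.3 and 3.00 CPM in wild type and 25.7, 34.7 and 37.5 CPM under papl1 papl2. AT3G15630, WAKL4 and AT3G47160 were called higher, with adjusted p of 0.0110, 0.0394 and 0.0254 in edgeR. Because nearness was measured over libraries that include both genotypes, these calls are a description.

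Markers of other cells and of handling were set beside these results. All 6 genes of a touch and wound response list (TCH2, TCH3, TCH4, WRKY33, WRKY40 and ZAT10) were called higher, with a sum of 40.0 to 43.4 CPM in wild type and 103 to 136 CPM under papl1 papl2, and their part in the result was not tested. In wild-type replicate 3 that sum was 40.0 CPM, of which TCH2 alone gave 27.7 CPM, against 43.4 and 41.4 CPM in replicates 1 and 2. Each gene of the list but ZAT10 was lowest of the wild type in replicate 3. TCH3 was at 0.524 CPM there, against 1.21 and 0.992 CPM in replicates 1 and 2. Of the 6 markers of differentiated phloem, 4 were tested and SUC2 was called higher. SUC2 had 5, 3 and 8 counts in wild type and 18, 19 and 28 under papl1 papl2. It passed the filter through its mutant-labelled counts, so its call is a description. The list summed to 10.9 to 12.3 CPM in wild type and 11.5 to 13.2 CPM under papl1 papl2. Of the 2 endodermis markers, MYB36 was tested and was called higher, and the pair summed to 2.57 to 3.47 and 6.03 to 8.13 CPM. Of the 4 root cap markers 0 were called, with sums of 74.7 to 80.1 and 59.2 to 77.1 CPM. The part of these cells in the result was not tested.

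**Figure D4:**
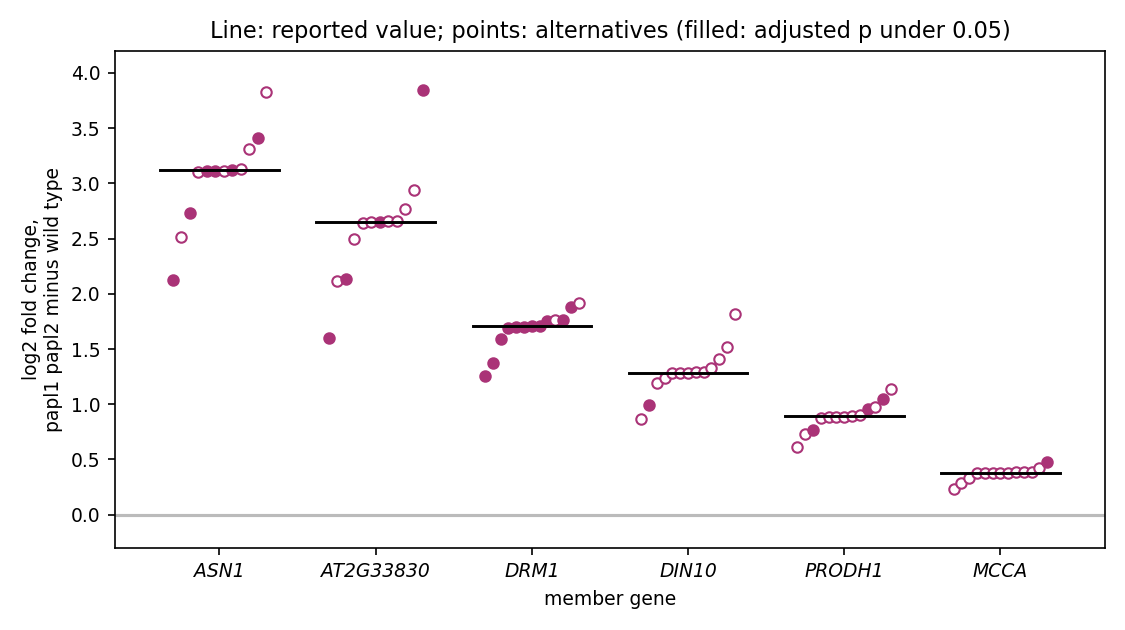
Log2 fold change between papl1 papl2 and wild type (y axis) of the 6 tested genes (x axis): the line is the reported value and each point an alternative, filled where the adjusted p was under 0.05. Every point lies above 0, and ASN1 runs from 2.13 to 3.83 and DRM1 from 1.26 to 1.92.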

How the data were processed

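Raw read counts, whole numbers that the authors had not normalised, were deposited in 1 table with a column for each library, per the file headers. The submitters' processing notes name TopHat2, HTSeq, DESeq, DESeq2 and the TAIR10 build, with no versions or roles. The annotation and any use of strand are not given in the sources used here. Columns were matched to samples by genotype and number in the titles.

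The analysis used edgeR 4.0.16 in R 4.3.3. After filterByExpr (minimum count 10, minimum total 15) and scaling by trimmed mean of M-values (TMM), genotypes were compared with glmQLFit and glmQLFTest, genotype as the only term, over all 6 libraries. Benjamini-Hochberg adjustment ran over all tested genes. Standard errors came from the size of the log2 fold change over the root of its F statistic, and 95% intervals use its degrees of freedom. Floors and ratios cover counting error only, since PCR was used without molecular identifiers mentioned. In counts simulated for this comparison over 17585 genes, 85 of 100 genes changed by 1 and 94 of 100 changed by 2 on the log2 scale were recovered, with 16 false calls among 195.

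The 9 genes and all lists were chosen with earlier results of these data known. Named were the 9 genes, called genes of each list or else its smallest p, and the 5 nearest profiles. Coordinates, upstream sequences and transcript lengths are from TAIR10.1 (RefSeq), an update of the authors' TAIR10, and no coordinate from the authors was used. Same-numbered libraries were not paired: the correlations of their deviations from the group means were -0.00913, -0.0601 and -0.107. Alternatives were the DESeq2 1.42.0 Wald test, other scalings and filters, a replicate block, a stricter threshold and each library left out.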

Additional observations from a re-analysis of the deposited data

How the results depend on the processing

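The log2 fold changes of the 6 tested starvation markers stayed above 0 in each of the 12 or 13 alternatives that gave a value. The number of the 9 genes called was 2, against 1 with the DESeq2 Wald test (DRM1), 1 with a mean of at least 5 CPM, which removes ASN1 and AT2G33830 from the test, 0 at an adjusted p under 0.01, 0 to 4 across the fits without 1 library, and 5 without wild-type and papl1 papl2 replicate 3 together, added after the data were seen. With no filter on low counts AT2G33830 was called too, making 3. With the replicate number as a block, 2 were called, PRODH1 and DRM1 (adjusted p 0.0195 and 0.0486 in edgeR), and ASN1 was not (0.120). The number of all genes called was 489, against 259 with the replicate number as a block, 140 at the stricter threshold of 0.01, 144 to 1164 across the fits without 1 library, the most without papl1 papl2 replicate 3 and the fewest without wild-type replicate 1, and 1000 without both replicates 3. Of the related genes in the lists 1 was called, against 7 with DESeq2, 3 with upper-quartile factors, 6 with no filter, 2 with the replicate block, 0 to 6 across the fits without 1 library and 7 without both replicates 3, alternatives applied to these lists after the data were seen. DRM1 was called in 11 of 13 alternatives, ASN1 in 6 of 12, AT2G33830 in 4 of 12, PRODH1 in 3 of 13 and DIN10 and MCCA in 1 of 13 each. What lies behind them was not tested. Depth limits SEN1, BCAT2 and BGLU30, with 1 to 21 counts summed over a label.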
